A study of Mus musculus with 7 samples.

Results

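The Wnt ligands and Wnt feedback genes described here are 10 genes of a table of 14820 genes measured in mouse skin papillomas, benign tumors of the epidermis. They were taken by gene symbol. The ligands are Wnt3, Wnt4, Wnt5a, Wnt6, Wnt7b and Wnt10a, and the feedback genes are Axin2, Lef1, Apcdd1 and Znrf3. All 10 symbols were found, and 7 of them passed the filter for testing, a mean of at least 10 normalized reads in either group, as did 10466 of the 14820 genes.

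The study asked how lesions formed under chronic p16 expression differ from lesions of mice without it, and 7 whole papillomas were profiled. The 3 p16 papillomas (numbered 1, 2 and 3) came from K5-rtTA/tet-p16 mice, which express human p16 from a transgene when given doxycycline, in the keratinocytes where the Krt5 promoter is active. The 4 control papillomas (numbered 1, 2, 3 and 5) came from siblings carrying tet-p16 alone. Every mouse received 50 nmol of the mutagen DMBA once at 3 weeks of age, doxycycline from 1 week later and the tumor promoter TPA every few days over 23 weeks. The tissue was taken at 27 weeks of age, 10 days after the last TPA dose. The tet-p16 line is of mixed C57Bl6 and 129sv background and the K5-rtTA line is FVB. Per the study's methods, papilloma data were shown for females. The study found p16 protein in a share of the keratinocytes of non-tumor epidermis, not in every cell. It also detected p16-positive cells within the papillomas. The transgene is of human sequence, so reads of mouse genes do not report it. The labels do not say whether the papillomas came from separate mice, and the p-values therefore measure the spread between these lesions.

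Wnt proteins are secreted, lipid-modified signals that bind Frizzled receptors on nearby cells, often on the secreting cell itself. In the branch that runs through beta-catenin, receptor binding stops the destruction complex from degrading beta-catenin, which then enters the nucleus and activates genes together with TCF and LEF factors. Some of these genes, such as Axin2 and Znrf3, encode brakes on the same pathway, which is why their mRNA is widely read as a sign of its activity. In skin, Wnt signals support basal keratinocytes of the epidermis and drive hair follicle growth, while Wnt5a is best known for signaling that does not need beta-catenin.

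Libraries held 1158035 reads (p16 papilloma 2) to 4365391 reads (p16 papilloma 3), and 1 read was worth 0.735 to 2.89 normalized units. Reads come from transcript 3′ ends, so values are not scaled to gene length and levels of different genes are compared on the scale of normalized reads per transcript end. Basal keratinocyte markers such as Krt5 and Krt14 summed to 33404 to 46449 normalized reads in p16 and 44060 to 68041 in control papillomas, and 1 of the 8 tested fell (Itga6, limma adjusted p = 0.0169). Without Krt5 and Krt14, which make up most of that sum, the other 6 basal markers summed to 1943 to 2915 in p16 and 2429 to 3214 in control papillomas. Suprabasal markers such as Krt1 and Krt10 summed to 105690 to 154840 in p16 and 58548 to 66266 in control papillomas, and 5 of the 8 tested rose. Skeletal muscle markers stood apart in p16 papilloma 2 (7190 normalized reads, against 175 and 1483 in the other p16 and 101 to 359 in the control papillomas). Fibroblast markers summed to 4133.5 to 20059 in p16 and 4773 to 13760 in control papillomas. Of the 9 tested, 2 rose (Dcn and Thy1, limma adjusted p = 0.0280 and 0.0228). Adipocyte markers, mostly Fabp4, summed to 1456 to 2405 in p16 and 1885 to 11370 in control papillomas. Of the 3 tested, 1 rose (Adipoq, limma adjusted p = 0.0272). Cidec and Plin1, too weak to be tested, were also higher in p16 papillomas without overlap. Fabp4 and Cidea had lower means in p16 papillomas with overlap, and Plin4, Retn and Lep overlapped too. The adipocyte sum thus mainly reports Fabp4. Each fold change is a difference of mean log2(value + 1), p16 minus control, so changes of weak genes come out smaller than they are. Genes were tested with limma and adjusted over all 10466 genes, of which 2.66% rose and 2.96% fell.

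Of the 7 members tested, Wnt3 was the one that rose and none fell. The edgeR test also called 1 member higher and 0 lower, and DESeq2 called 1 higher and 1 lower (Wnt5a). Of the 10466 genes, edgeR called 543 and DESeq2 786 in either direction. Over all genes tested with limma, 2.66% rose and 2.96% fell, 5.62% in either direction. The members' log2 fold changes were positive for 2 and negative for 5, with a median of -0.31, beside -0.02 over all genes tested. The unadjusted limma p was under 0.05 for 2 members, Wnt3 and Wnt5a. Of the 10466 genes tested, 2213 had an unadjusted limma p of 0.0496 or less, so such values were common over the whole table. Values of the p16 and control papillomas did not overlap for 2 members, Wnt3 and Wnt7b, both higher in p16, and no member was lower without overlap. Over all genes tested these shares were 9.25% higher and 10.4% lower. These are whole lesions, so fewer cells of a type and less RNA per cell cannot be told apart.

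**Figure D1:**
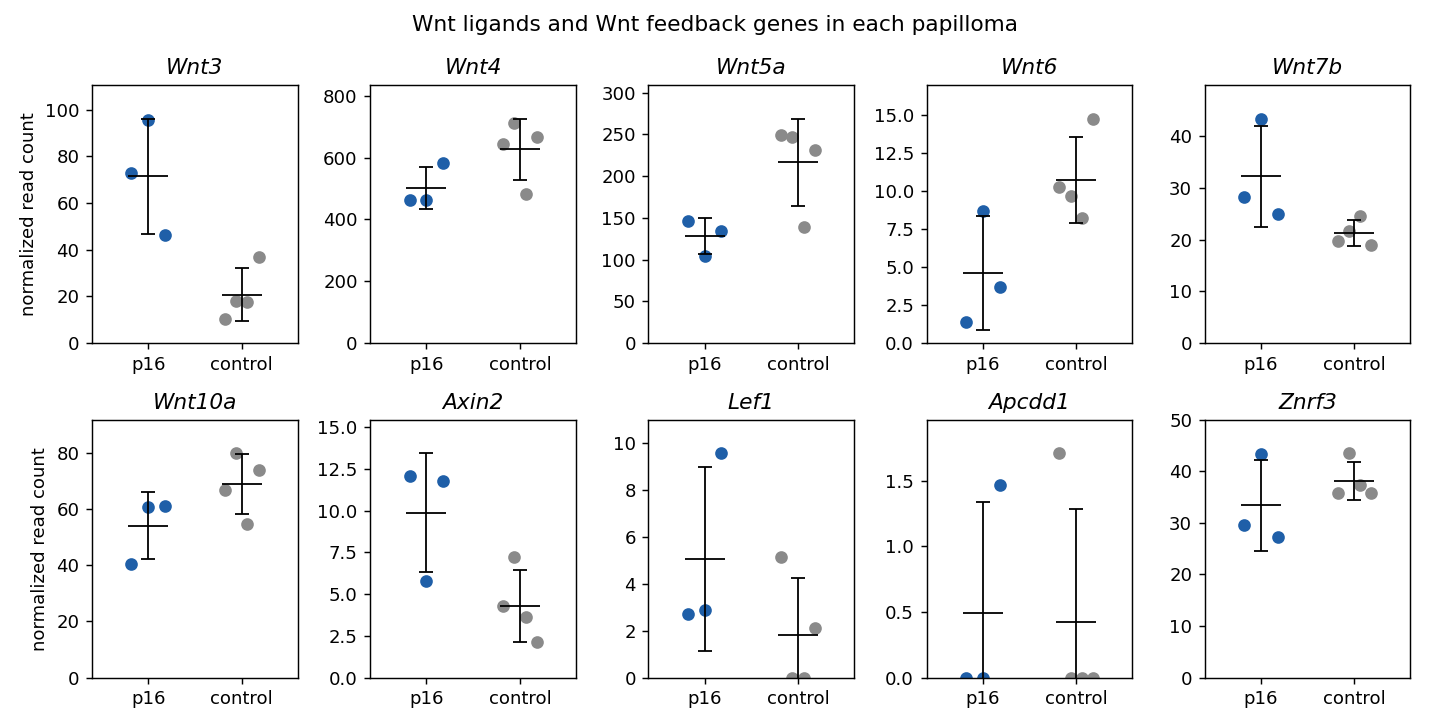
Normalized read counts of the 10 members in each papilloma, 1 point per lesion, with p16 papillomas (n = 3, blue) left of control papillomas (n = 4, grey), horizontal bars at the group mean and whiskers of 1 SD; each panel has its own axis from 0. Wnt3 lies between 46.3 and 95.5 in p16 papillomas, above the 10.2 to 36.9 of the control papillomas, while Wnt5a lies between 104 and 147 in p16 and between 139 and 249 in control papillomas.

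The upstream sequences of Wnt3, the member that rose, and of Axin2, the feedback gene most often used to read the pathway, are shown because TCF and LEF factors act on DNA near their target genes. Letters are from RefSeq (GRCm38.p6), 5′ to 3′ on the plus strand, ending at the base before the annotated gene, and capitals mark the TCF/LEF core CTTTG on either strand. The Wnt3 stretch is chr11:103773925-103774149 and the Axin2 stretch is chr11:108920099-108920348.
Wnt3: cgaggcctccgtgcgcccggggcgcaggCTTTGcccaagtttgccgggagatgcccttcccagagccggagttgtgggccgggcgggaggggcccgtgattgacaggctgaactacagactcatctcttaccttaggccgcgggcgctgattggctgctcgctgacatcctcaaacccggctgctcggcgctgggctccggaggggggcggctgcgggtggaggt
Axin2: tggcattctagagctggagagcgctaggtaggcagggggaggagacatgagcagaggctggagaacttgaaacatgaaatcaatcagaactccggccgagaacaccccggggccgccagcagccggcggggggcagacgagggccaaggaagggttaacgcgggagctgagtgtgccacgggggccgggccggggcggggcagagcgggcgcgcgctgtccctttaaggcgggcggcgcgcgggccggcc

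The longer cores CTTTGAA and CTTTGAT were searched on both strands in the 250 bases before each RefSeq start, and 7.48% of 32851 such windows of all genes held at least 1. None of the 8 windows found for 5 members (Wnt3, Wnt4, Wnt6, Axin2 and 4 starts of Lef1) did. The shorter CTTTG, which the longer cores contain and which was added after the first search was seen, was in 48.6% of all windows. It was found once in the Wnt3 window, 222 bases before the RefSeq start, in each of the 4 Lef1 windows, and not in those of Wnt4, Wnt6 or Axin2. That Wnt3 window ends at chr11:103774174, past the end of the letters shown above. The Lef1 windows chr3:131110047-131110296 and chr3:131110073-131110322 overlap for most of their length and share a match. A match is a run of letters and not a shown binding site.

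Wnt3, a ligand that signals through beta-catenin, had 72.6, 95.5 and 46.3 normalized reads in the p16 papillomas, against 10.2, 18.1, 17.3 and 36.9 in the control papillomas. The lowest p16 lesion was above the highest control lesion. The gene spans chr11:103774150-103817957 (GRCm38). Its mean was 71.5 ± 24.6 (SD, n = 3) in p16 and 20.6 ± 11.4 (SD, n = 4) in control papillomas. The log2 fold change was 1.82 (SE 0.40, 95% interval 0.96 to 2.69, limma adjusted p = 0.0214), a 3.54-fold difference. These values rest on 54, 33 and 63 reads in p16 and 12, 15, 19 and 35 reads in control papillomas.

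The Wnt3 call held in 18 of 21 alternatives. The 14 that left out no papilloma gave log2 fold changes of 1.67 to 2.14 (adjusted p of 0.00133 to 0.0302), among them edgeR (0.0302) and DESeq2 (0.00133). It was lost without control papilloma 2 (log2 fold change 1.81, limma adjusted p = 0.0527), without p16 papilloma 1 (1.78, 0.0727) and without p16 papilloma 2 (1.59, 0.0955). The exact permutation test over the 7 papillomas gave p = 0.0571, two-sided, the smallest that 3 against 4 samples allow.

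Inner root sheath markers, genes of a hair follicle layer, were all 8 in the table, and none was at 0 in every papilloma. They summed to 526, 1117 and 1291 normalized reads in p16 papillomas 1, 2 and 3, against 268, 257, 189 and 375 in the control papillomas. Gata3, which the epidermis also expresses, was the 1 of 7 tested that rose (log2 fold change 1.67, limma adjusted p = 0.000541), and it supplied 424 of the 526 in p16 papilloma 1. The other 7 markers each overlapped between the groups. Without Gata3 they summed to 102, 767 and 906 in p16 papillomas, against 179, 117, 64.8 and 240 in control papillomas. P16 papilloma 1 then lay within the control range, and p16 papillomas 2 and 3 lay above it. The hair matrix and hair shaft markers summed to 56.5 to 142 in p16 and 42.9 to 129 in control papillomas. The part of these cells, and of the higher suprabasal marker sum, in the Wnt3 result was not tested. The marker scores used as covariates were of other cell types and held no follicle or suprabasal markers. The Wnt3 log2 fold change was 1.99 with the fibroblast score and 1.82 with the pooled muscle and adipocyte score. Fabp4 made up most of the adipocyte part of that pooled score.

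Wnt5a, the ligand best known for beta-catenin independent signaling, had 147, 104 and 134 normalized reads in p16 papillomas, against 249, 246, 139 and 232 in control papillomas. All but control papilloma 3 were above every p16 lesion. Its mean was 128 ± 21.8 (SD, n = 3) in p16 and 217 ± 52.4 (SD, n = 4) in control papillomas, and the log2 fold change was -0.73 (SE 0.23, limma adjusted p = 0.0898), short of the threshold. It passed in 3 of 21 alternatives, with DESeq2 (adjusted p = 0.0488), with the fibroblast covariate (limma adjusted p = 0.0351) and without control papilloma 3 (log2 fold change -0.93, limma adjusted p = 0.0173). The adjusted p over the alternatives ran from 0.0173 to 0.275.

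Wnt4, a ligand of the basal epidermis, was the most abundant member in every papilloma. It had 464, 463 and 581 normalized reads in p16 papillomas, against 646, 711, 483 and 667 in control papillomas. The groups overlapped through control papilloma 3 and p16 papilloma 3, and the log2 fold change was -0.31 (SE 0.17, limma adjusted p = 0.316). Its mean level over the 7 papillomas was higher than that of 94.5% of the genes in the table.

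Wnt10a, a ligand of the epidermis and of hair and tooth development, had 40.4, 60.8 and 61.0 normalized reads in p16 papillomas, against 66.6, 79.7, 54.8 and 73.8 in control papillomas. Control papilloma 3 again reached into the range of the p16 lesions. The log2 fold change was -0.35 (SE 0.23, limma adjusted p = 0.411).

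Wnt6, whose gene ends 6193 bases before Wnt10a on the same strand of chromosome 1, was much weaker. It had 1.35, 8.68 and 3.68 normalized reads in p16 papillomas, against 10.2, 9.66, 8.22 and 14.8 in control papillomas. These were 1, 3 and 5 reads in p16 and 12, 8, 9 and 14 reads in control papillomas, so the single overlap rests on 3 reads of the shallowest library. The log2 fold change was -1.28 with a wide 95% interval of -2.61 to 0.05 (limma adjusted p = 0.253). The ratio of Wnt10a to Wnt6 was 30, 7 and 16.6 in p16 papillomas, against 6.50, 8.25, 6.67 and 5 in control papillomas, and the exact permutation test did not separate the groups (p = 0.114).

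Wnt7b, a ligand of epithelia that acts through beta-catenin, had 28.2, 43.4 and 24.99 normalized reads in p16 papillomas, against 19.6, 21.7, 24.7 and 19.0 in control papillomas. The groups did not overlap, but p16 papilloma 3 and control papilloma 3 were 0.339 units apart, less than the worth of 1 read. The log2 fold change was 0.55 (SE 0.29, limma adjusted p = 0.305).

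**Figure D2:**
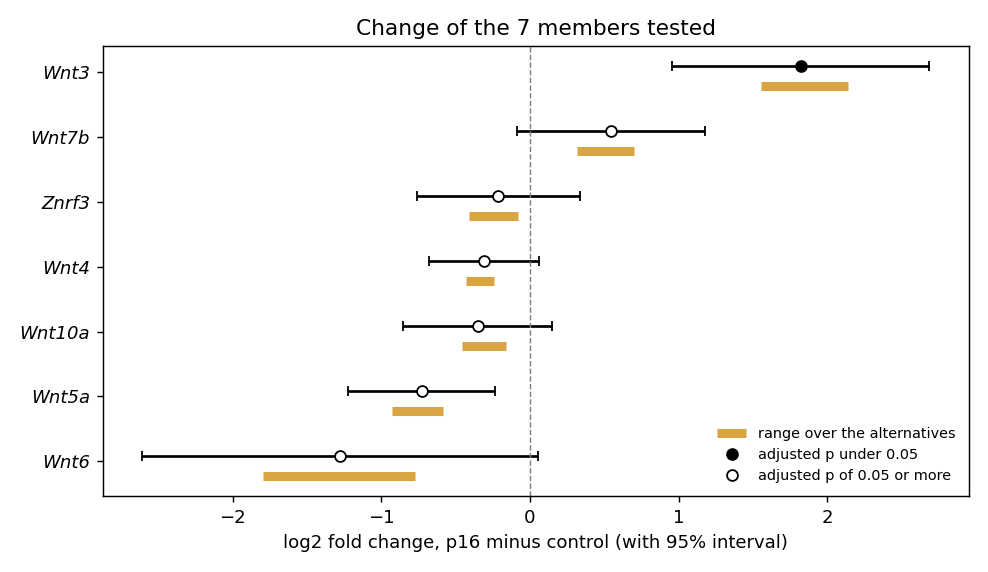
Log2 fold change, p16 minus control, of the 7 members tested (points, with 95% intervals; filled where the adjusted p is under 0.05), and below each point the range of the same value over the alternatives (thick line). Wnt3 at 1.82 is the filled point, and the ranges of all 7 stay on 1 side of 0.

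Wnt4 ranked first and Wnt5a second among the ligands in all 7 papillomas, and the place of Wnt3 varied. In control papillomas 1, 2 and 3, Wnt3 ranked below Wnt4, Wnt5a, Wnt10a and Wnt7b, and in control papilloma 5 it was above Wnt7b and Wnt6. In p16 papillomas 1 and 2 it ranked after Wnt4 and Wnt5a, and in p16 papilloma 3 after Wnt10a as well. Wnt3 took 9.29%, 12.1% and 5.32% of the reads of all 13 Wnt ligands of the table in p16 papillomas, against 1.00%, 1.64%, 2.31% and 3.47% in control papillomas. The mean share was 8.92% ± 3.42 (SD, n = 3) in p16 and 2.11% ± 1.05 (SD, n = 4) in control papillomas (exact permutation p = 0.0571, two-sided).

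Wnt4 and Wnt5a together took 72.1% to 82.2% of the ligand reads in p16 papillomas and 82.8% to 87.4% in control papillomas (exact permutation p = 0.0571). All shares are parts of the same total, so this result is not independent of the higher Wnt3 share. Wnt4 alone took 61.7% ± 4.46 (SD, n = 3) in p16 and 63.7% ± 0.945 (SD, n = 4) in control papillomas. Wnt5a alone took 15.8% ± 2.79 in p16 and 21.7% ± 2.43 in control papillomas (exact permutation p = 0.114). The ratio of Wnt5a to Wnt3 was 2.02, 1.09 and 2.89 in p16 papillomas, against 24.3, 13.6, 8 and 6.29 in control papillomas, without overlap (exact permutation p = 0.0571). Its denominator, Wnt3, did not overlap by itself, so the ratio is not a separate result. The sum of the 13 ligands was 813 ± 49.6 normalized reads (SD, n = 3) in p16 and 985 ± 160 (SD, n = 4) in control papillomas (exact permutation p = 0.229).

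**Figure D3:**
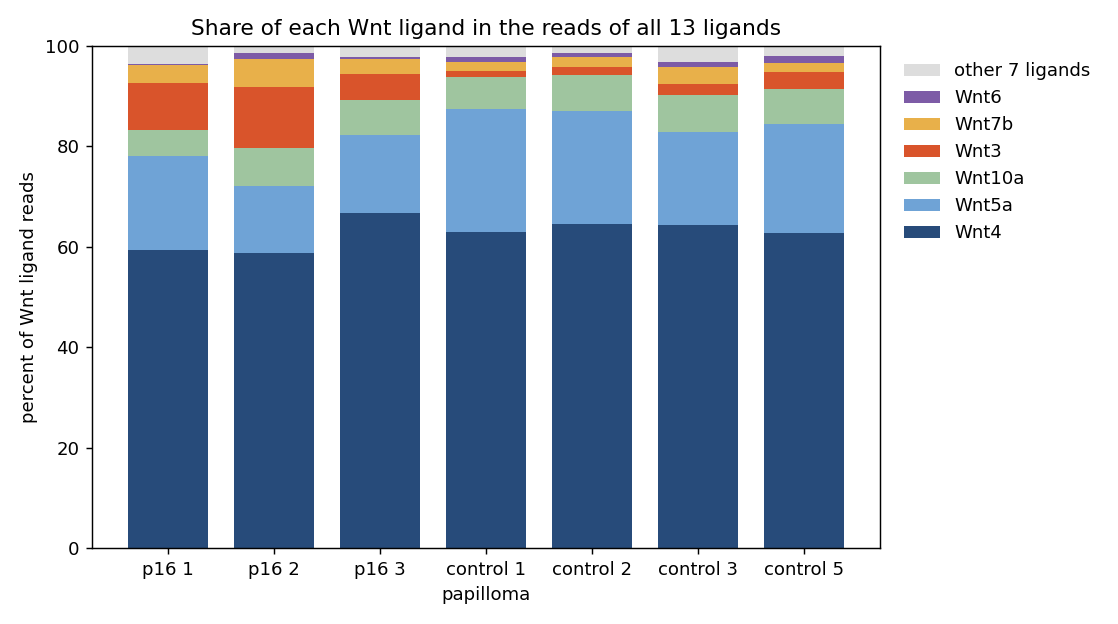
Share of each Wnt ligand in the reads of the 13 ligands of the table, in percent, for each papilloma (1 stacked bar each, p16 on the left). The Wnt3 band is 5.32% to 12.1% in p16 and 1.00% to 3.47% in control papillomas, and Wnt4 fills more than any other ligand in every bar.

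The other 7 ligands were too weak to be tested, and 6 of the 19 Wnt ligands of the mouse were not analysed here. The 6 members held 97.6% ± 1.09 (SD, n = 3) of the ligand reads in p16 and 97.8% ± 0.764 (SD, n = 4) in control papillomas. Wnt3a, the closest relative of Wnt3, had 1, 2 and 14 reads in p16 papillomas, against 11, 6, 5 and 8 reads in control papillomas. Wnt9a, which lies 16175 bases from Wnt3a on chromosome 11, had 10 reads over the p16 and 28 over the control papillomas.

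Wnt11, a ligand of beta-catenin independent signaling, had 1 read over the p16 papillomas and 19 over the control papillomas, 12 of them in control papilloma 3. The pooled ratio per library read was 0.0886, and its exact 95% interval, which covers counting error alone, ran from 0.00213 to 0.557. Wnt16, a ligand of skin and bone, had 15 reads in p16 papillomas, 14 of them in p16 papilloma 1, and 5 in control papillomas. Wnt7a had 7 reads in p16 and 2 in control papillomas, Wnt5b had 1 read in p16 papilloma 3 alone, and Wnt2 had none, which allows up to 0.465 CPM in p16 and 0.276 CPM in control papillomas (counts per library total, exact Poisson upper limit). When no filter was applied, none of these ligands passed the test (for Wnt11, log2 fold change -1.89, limma adjusted p = 0.142).

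Of the feedback genes, Znrf3 was the one abundant enough to be tested. It encodes a membrane ubiquitin ligase that removes Frizzled receptors. It had 29.6, 43.4 and 27.2 normalized reads in p16 papillomas, against 35.9, 43.5, 37.4 and 35.8 in control papillomas. P16 papilloma 2 lay within the control range and the other p16 lesions below it. The log2 fold change was -0.21 with a 95% interval of -0.76 to 0.33 (limma adjusted p = 0.676).

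Axin2, a scaffold of the destruction complex and a direct target of beta-catenin, had 12.1, 5.79 and 11.8 normalized reads in p16 papillomas, against 4.27, 7.25, 3.65 and 2.11 in control papillomas. P16 papillomas 1 and 3 were above every control lesion, and p16 papilloma 2 was below control papilloma 2. These values are 9, 2 and 16 reads in p16 and 5, 6, 4 and 2 reads in control papillomas. The p16 mean of 9.89 ± 3.55 (SD, n = 3) fell just short of the filter, and the control mean was 4.32 ± 2.15 (SD, n = 4). With the filter lowered to a mean of 2, the log2 fold change was 1.06 (SE 0.52, limma adjusted p = 0.293). Pooled over libraries, the p16 to control ratio per read was 2.67 (exact 95% interval 1.41 to 5.23, counting error only), and the spread between lesions was not separated by the exact permutation test (p = 0.114).

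Lef1, a DNA-binding partner of beta-catenin that is itself switched on by Wnt signals in hair follicle cells, had 2.69, 2.89 and 9.56 normalized reads in p16 papillomas, against 5.12, 0, 0 and 2.11 in control papillomas. Of its 16 reads in p16 papillomas, 13 were in p16 papilloma 3, and of its 8 reads in control papillomas, 6 were in control papilloma 1. The groups overlapped. With the filter lowered, the log2 fold change was 1.35 (SE 0.79, limma adjusted p = 0.381). T cells express Lef1 too. The 9 T cell markers in the table, of 10 listed, were all too weak to be tested, and their sum was 34.98, 11.6 and 16.9 normalized reads in p16 papillomas, against 13.7, 18.1, 7.30 and 19.0 in control papillomas. Their part in the Lef1 values was not tested.

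Apcdd1, a membrane inhibitor of Wnt signaling in the hair follicle, was hardly detected, with 2 reads in p16 papilloma 3, 2 reads in control papilloma 1 and none in the other 5 lesions. A difference in Apcdd1 was not detectable at this depth.

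The rest of the pathway was described with lists of genes by role. Among all 10466 genes tested with limma, 2.66% rose and 2.96% fell, and 2213 had an unadjusted p of 0.0496 or less. Of 9 tested genes for Wnt secretion, none rose or fell, with a median log2 fold change of 0.01, and edgeR and DESeq2 also called 0. The unadjusted limma p was under 0.05 for 1, Vps26a, a retromer subunit that recycles the Wnt carrier (log2 fold change 0.30, limma adjusted p = 0.230). Of 12 Frizzled receptors and co-receptors none passed (1 at an unadjusted limma p under 0.05, 0 with edgeR or DESeq2, median -0.05). That gene was Lypd6b, a relative of the co-receptor Lypd6 (log2 fold change 0.56, limma adjusted p = 0.141), and Fzd2, a Frizzled receptor, was at -0.77 (0.278).

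Of 8 tested genes for beta-catenin independent receptors and planar polarity none passed (2 at an unadjusted limma p under 0.05, 0 with edgeR or DESeq2, median 0.07), among them the atypical cadherin Celsr2 (log2 fold change 0.51, limma adjusted p = 0.230). Of 7 secreted antagonists and other inhibitors none passed (1 at an unadjusted limma p under 0.05, 0 with edgeR or DESeq2, median -0.17). That gene, Dkk3, a secreted member of the Dickkopf family, had 34.98, 20.3 and 27.9 normalized reads in p16 papillomas, against 54.7, 47.1, 83.1 and 43.2 in control papillomas. Its values did not overlap and its log2 fold change was -1.0004 (SE 0.29, limma adjusted p = 0.0686). It passed in 1 of 21 alternatives, with the muscle and adipocyte covariate (0.0295).

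Of 21 genes of beta-catenin and its destruction complex, 1 fell and none rose, with a median of -0.03. Over all genes tested, 2.66% rose and 2.96% fell. Tnks2, a tankyrase that marks Axin proteins for degradation, had 426, 443 and 429 normalized reads in p16 papillomas, against 623, 888, 824 and 917 in control papillomas. The p16 lesions were closely alike and all below the control lesions (log2 fold change -0.89, SE 0.16, limma adjusted p = 0.00747). Of 14 TCF factors and nuclear partners, 1 rose and none fell, with a median of 0.05. Aes, a short Groucho-family co-repressor, had 587, 619 and 571 normalized reads in p16 papillomas, against 430, 344, 455 and 367 in control papillomas (log2 fold change 0.58, limma adjusted p = 0.0440). The Aes call was lost in 8 of 21 alternatives, among them edgeR (adjusted p = 0.0519) and the omission of control papilloma 2 or 5 or of any p16 papilloma (0.0757 to 0.148).

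Of 12 tested genes in the wider list of Wnt feedback and target genes, which includes the feedback members, 1 rose and 3 fell, with a median of -0.25. Among all genes tested, 2.66% rose and 2.96% fell. Tnfrsf19, a receptor of the TNF family also known as Troy, had 32.3, 52.1 and 26.5 normalized reads in p16 papillomas, against 6.83, 4.83, 10.0 and 15.8 in control papillomas. Its log2 fold change was 1.93 (SE 0.43, limma adjusted p = 0.0253), with no overlap between the groups. Like Wnt3 it was highest in p16 papilloma 2 and, among the controls, in control papilloma 5. The call held in 16 of 20 alternatives and was lost without control papilloma 2 (limma adjusted p = 0.0575), p16 papilloma 1 (0.0678) or p16 papilloma 2 (0.113).

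The falls were the D-type cyclins Ccnd1 and Ccnd2 and the membrane pseudoreceptor Bambi, which have other regulators beside Wnt. Ccnd1, which drives entry into the cell cycle with CDK4 and CDK6, had 558, 371 and 479 normalized reads in p16 papillomas, against 1243, 1499, 2032 and 1868 in control papillomas. Every p16 lesion was below every control lesion, and the log2 fold change of -1.82 (SE 0.20, limma adjusted p = 0.000515) passed in all 21 alternatives. Ccnd2 had 523, 208 and 222 in p16 papillomas, against 533, 907, 1623 and 810 in control papillomas (log2 fold change -1.62, limma adjusted p = 0.0272). The gap between its groups was narrow, between p16 papilloma 1 and control papilloma 1, and the call held in 16 of 21 alternatives. It was lost without control papilloma 2 or 5 or p16 papilloma 2 or 3 (limma adjusted p of 0.0589 to 0.115).

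Bambi, which dampens TGF-beta signals and is induced by beta-catenin in some cells, had 2 reads over the p16 papillomas and 69 over the control papillomas. The pooled ratio per read was 0.0488, and its exact 95% interval, which covers counting error alone, ran from 0.00579 to 0.183. Its log2 fold change was -3.12 (SE 0.75, limma adjusted p = 0.0333), and the call held in 13 of 20 alternatives. It was lost with limma-voom (adjusted p = 0.215) and without control papilloma 2, 3 or 5 or p16 papilloma 1 or 3 (0.0624 to 0.131).

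**Figure D4:**
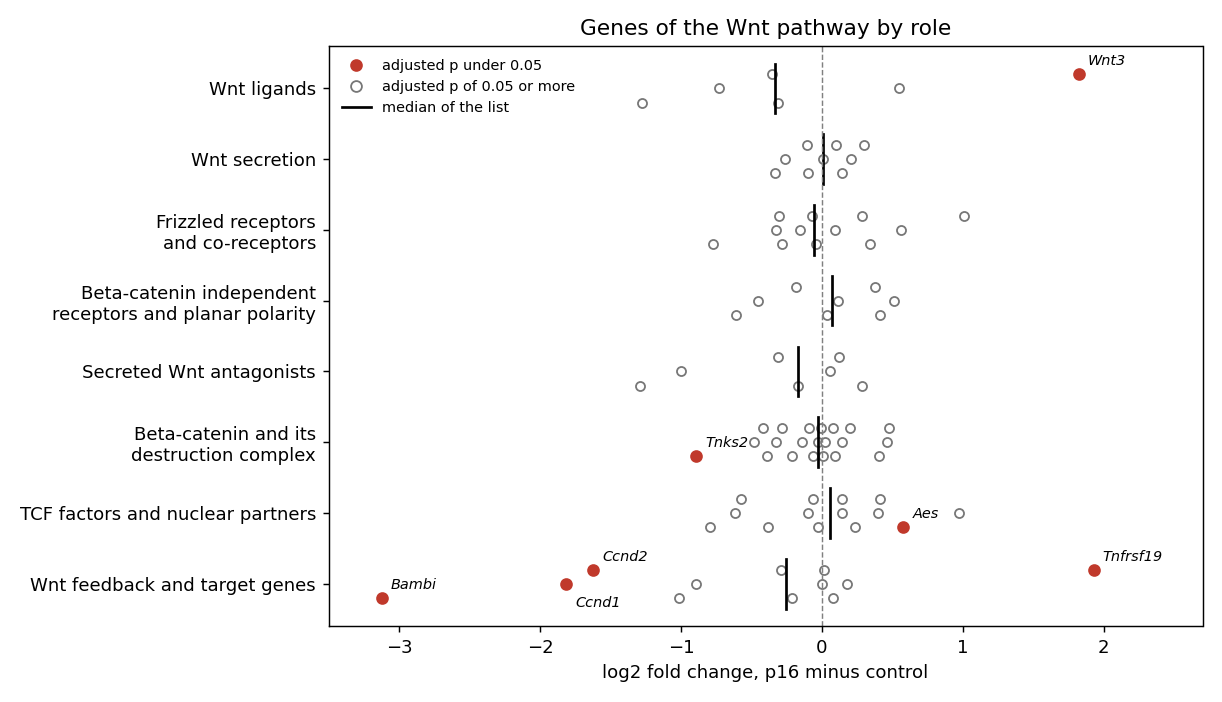
Log2 fold change, p16 minus control, of each tested gene of the Wnt pathway (points), in rows by role, with the median of each list as a vertical bar and genes with an adjusted p under 0.05 in red and named. Wnt3 (1.82), Tnfrsf19 (1.93) and Aes (0.58) lie to the right of 0, and Tnks2 (-0.89), Ccnd1 (-1.82), Ccnd2 (-1.62) and Bambi (-3.12) to the left.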

How the data were processed

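RNA of 7 whole papillomas was profiled by CEL-Seq2. Per the study's methods and the submitters' processing notes, the authors used TopHat2 for alignment to GRCm38, HTSeq for counting per gene and DESeq2 for normalization and testing (versions not given in the sources used here). The deposited signal values are the authors' read counts divided by 1 size factor per papilloma. Their own fold changes and p-values were not used. Every value was a whole multiple of 1 read (100% at a tolerance of 0.001), so whole reads were recovered for depth, for exact Poisson and binomial intervals (95%) and for count-based alternatives. Intervals cover counting error only, because they treat each read as an independent draw and leave out the spread between lesions. The steps used here did not remove amplified copies, and any that remain make these intervals too narrow even for counting error.

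The main test was limma-trend on log2(value + 1), two-sided, over genes whose mean reached 10 in the p16 or the control papillomas, with Benjamini-Hochberg adjusted p under 0.05. Alternatives were other pseudocounts (0.5, 4), filters and scalings, edgeR, DESeq2 and limma-voom on recovered reads, a replicate block, covariates, keratinocyte-marked genes and the omission of each papilloma. Members, gene lists and tests were chosen with earlier results of these data known. All members are named, and from each pathway list up to 4 called genes, or the 2 with the smallest p where none was called. Among those not called, Tmed2, Vangl1 and Tpbg had log2 fold changes of -0.26, -0.45 and -1.29 (limma adjusted p = 0.306, 0.234 and 0.403). Positions are from GENCODE M21 (GRCm38). Software was Python 3.11.15 (scipy 1.17.1, pandas 2.3.3, numpy 2.4.6, matplotlib 3.10.9) and R 4.3.3 (DESeq2 1.42.0, edgeR 4.0.16, limma 3.58.1).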

Additional observations from a re-analysis of the deposited data

Results flagged for a closer look

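Among 24 genes checked, the control papillomas held 1 value far from the other 3 for 3 genes. The test used is passed by chance in about 1 of 20 groups of normally distributed values. Wnt5a was at 138.8 normalized reads in control papilloma 3, against 231.8 to 249.4 in the other control papillomas. Apcdd1 was at 1.708 normalized reads (2 reads) in control papilloma 1, against 0 in the others, where any single value above 0 passes. Celsr2 was at 105.9 normalized reads in control papilloma 1, against 183.5 to 189.7 in the others.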

How the results depend on the processing

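The 588 genes called over the whole table became 270 with the replicate number as a block (replicate block), and 267 to 548 when 1 papilloma was left out, the lowest without p16 papilloma 2. Deviations of same-numbered papillomas from their group means correlated at -0.092, -0.00577 and -0.0522, so the numbers were not taken as pairs, and the block left control papilloma 5 without a partner. The members called were 1 (Wnt3) in the main result, 2 with DESeq2 and 2 with the fibroblast covariate (Wnt3 and Wnt5a), and 0 to 2 when 1 papilloma was left out, 0 without control papilloma 2, p16 papilloma 1 or p16 papilloma 2. Among log2 fold changes of 21 named genes under up to 21 alternatives, none changed sign, 28 lost and 4 gained a call, and 400 kept their side of the threshold. With the replicate block the calls of Tnks2 (limma adjusted p = 0.0592), Aes (0.210), Tnfrsf19 (0.0606), Ccnd2 (0.112) and Bambi (0.0975) were lost and those of Wnt3 (0.0207) and Ccnd1 (0.00759) held. Of all calls, 47.3% were higher in p16 papillomas, against 57.6% with limma-voom, and no scaling moved the median of all genes by more than 0.02 on the log2 scale. Depth limits Axin2, Lef1, Apcdd1 and the 7 ligands not tested, each at fewer than 31 reads per group.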
